A study of Ptychodera flava with 8 samples.

Results

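Stretches of the acorn worm genome in which accessible chromatin was packed most closely were picked out as 100 kb windows holding 25 or more accessible regions. Ptychodera flava is a hemichordate, an invertebrate deuterostome. ATAC-seq, in which the Tn5 transposase tags open DNA, was run on whole animals at 4 stages, the early blastula and then the early, the mid and the late gastrula, with no treatment or genetic change named in the labels. There were 8 libraries, 2 for each stage, and animals were pooled to 75000 cells for each library. Each stage is represented by 1 deposited list of peaks, which holds no value per library, so no difference between stages has a replicate check and no p-value is given. The 4 lists were merged where peaks overlapped by 1 bp or more, and each merged region was assigned by its midpoint to fixed windows counted from the start of its scaffold. Of 9706 windows with any region, 250 held 25 or more (2.58%), and these dense windows contained 7171 of the 82811 merged regions (8.66%). The number of regions in a window is what chose the members, so density itself and the distances between regions are described without a test.

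Accessible stretches include the promoters of genes and distal elements such as enhancers, short DNA segments that transcription factors bind to switch a gene on in particular cells. In animals, genes that direct development are often surrounded by many such elements spread over a long stretch, while in other places many promoters lie close together because genes are short and crowded. Blastulae are hollow balls of cells, and gastrulation folds them inwards to form the gut and the germ layers. Which genes lie in the dense windows was not analysed here, since no genome build is named for the lists.

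The dense windows were the upper tail of a continuous distribution. They held a median of 27 regions and at most 47, against a median of 7 in the other 9456 occupied windows, and 1909 further windows on the same scaffolds were empty. The threshold cut through the slope: 60 windows held exactly 25 regions and 70 held exactly 24. These neighbours on either side of it had similar contents, with 31.5% of regions open at all 4 stages just inside and 32.3% just outside, and median widths of 305 and 302 bp. Merged regions covered a median of 10.2% of a dense window (7.09% to 19.9%) and 2.30% of another window.

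**Figure D1:**
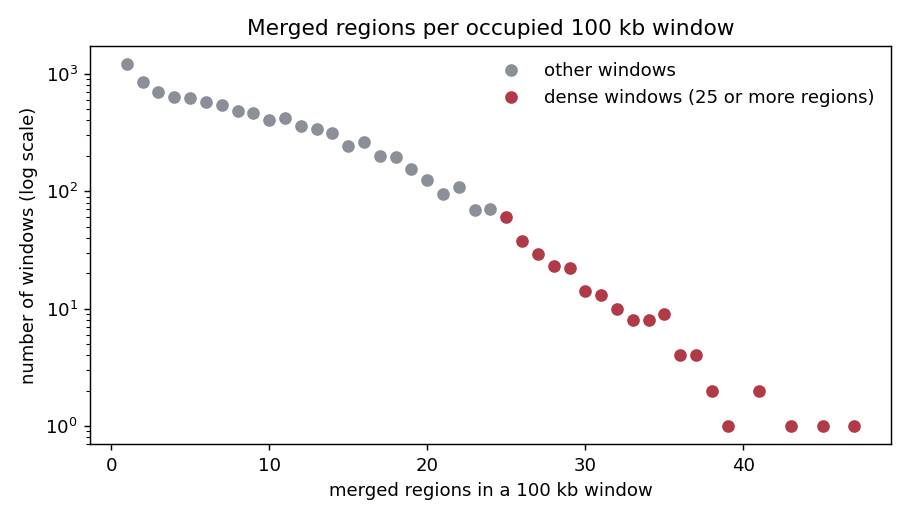
Number of occupied 100 kb windows (log axis) by the number of merged regions they held, with the 250 dense windows in red and the others in grey. Counts of windows decline without a break at the threshold of 25 regions, and the highest window holds 47.

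Dense windows were scattered over most large scaffolds. They occurred on 26 of the 133 scaffolds with a peak, and 249 of the 250 lay on scaffolds of at least 10 Mb. Scaffold 20 held the most, 21 windows (5.36% of its windows), followed by scaffold 14 with 19 (4.53%) and scaffold 5 with 15 (3.11%). Of the 27 large scaffolds, scaffolds 24 and 26 held none. Scaffold 20 came before scaffold 14 although its regions were fewer per Mb of the whole scaffold, 99.3 against 110.0.

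Scaffold 25 stood apart in how much of its accessible chromatin was gathered in a few places. It was sparse as a whole, at 44.5 regions per Mb, yet 6 of its 143 windows were dense (4.196%) and these held 28.6% of its 633 regions. On scaffold 20 the corresponding share was 15.4%, and on scaffold 14 it was 12.1%. Scaffold 3 was sparser still at 31.1 regions per Mb, and 5 of its 507 windows were dense, 1 of them among the 10 densest of all. The only dense window on a small scaffold lay on scaffold 85, at 200001 to 300000, and held 25 of the 27 regions of that scaffold.

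Most dense windows stood singly, but they neighboured each other more often than their share among all windows. Of the 500 windows flanking a dense window, counted once for each side, 64 were dense (12.8%), against 2.15% of all windows, empty ones included. The flanking windows held a median of 13 regions, against 5 over all windows. Another 47 of them held fewer than 5 regions, of which 5 were empty, so some dense windows ended abruptly. There were 191 single windows, 22 runs of 2 adjacent windows and 5 runs of 3, the longest length found. Since a cluster can straddle the boundary of fixed windows, some of these neighbours are parts of 1 cluster.

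The 5 longest runs differed in how their peaks changed over development. The run with most regions, on scaffold 19 at 6400001 to 6700000, held 106 regions with 60, 76, 70 and 83 peaks from early blastula to late gastrula. The run on scaffold 16 at 15200001 to 15500000 held 98 regions with 53, 65, 56 and 81 peaks, in the same order. On scaffold 25 at 6700001 to 7000000 there were 92 regions with 53, 61, 55 and 68 peaks. These 3 runs shared the order of the stages, with fewest peaks at early blastula and most at late gastrula. On scaffold 5 at 28000001 to 28300000 there were 90 regions with 57, 62, 54 and 78 peaks, so mid gastrula was lowest there. On scaffold 20 at 20600001 to 20900000 there were 81 regions with 36, 41, 48 and 72 peaks, a rise at each stage to 72 at the end.

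Dense windows lay close to the ends of scaffolds less often than other windows did. On scaffolds of at least 10 Mb, 2.01% of dense windows and 5.24% of other occupied windows lay within 1 Mb of an end. The first share rests on few windows: over scaffolds of all sizes, 6 dense windows lay that close to an end. Some ends are also uncertain, since 12 scaffolds had peaks beyond their named length.

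The densest window, on scaffold 19 at 6400001 to 6500000, held 47 regions, with 30 peaks at early blastula, then 33, 30 and 37 at the successive gastrula stages. The next, on scaffold 7 at 12800001 to 12900000, held 45 regions with 31, 29, 27 and 33 peaks in the same order. In both, every stage was crowded: they were the only windows in the genome with 25 or more peaks at each of the 4 stages. On scaffold 16 at 15300001 to 15400000, the window of rank 3 held 43 regions and rose from 20 peaks at early blastula to 33, 27 and 38 at the gastrula stages. The windows of ranks 4 and 5 held 41 regions each. On scaffold 5 at 44800001 to 44900000 the peaks numbered 22, 30, 28 and 37. In this window early blastula was the lowest stage, and 1 of the 41 regions was open at early blastula alone. On scaffold 8 at 28500001 to 28600000 they numbered 18, 26, 20 and 35.

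The other windows among the 10 densest held 37 to 39 regions. They lay on scaffold 19 at 35800001 to 35900000 (39 regions), scaffold 3 at 34600001 to 34700000 (38), scaffold 18 at 30700001 to 30800000 (38), scaffold 11 at 19500001 to 19600000 (37) and scaffold 12 at 4500001 to 4600000 (37). The largest contrast among these was on scaffold 11, with 16 early blastula peaks, 26, 27 and 35 peaks at the gastrula stages, and no region open at early blastula alone. The smallest was in the scaffold 19 window, with 27, 28, 24 and 31 peaks. Late gastrula had the most peaks in each of the 10 densest windows.

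**Figure D2:**
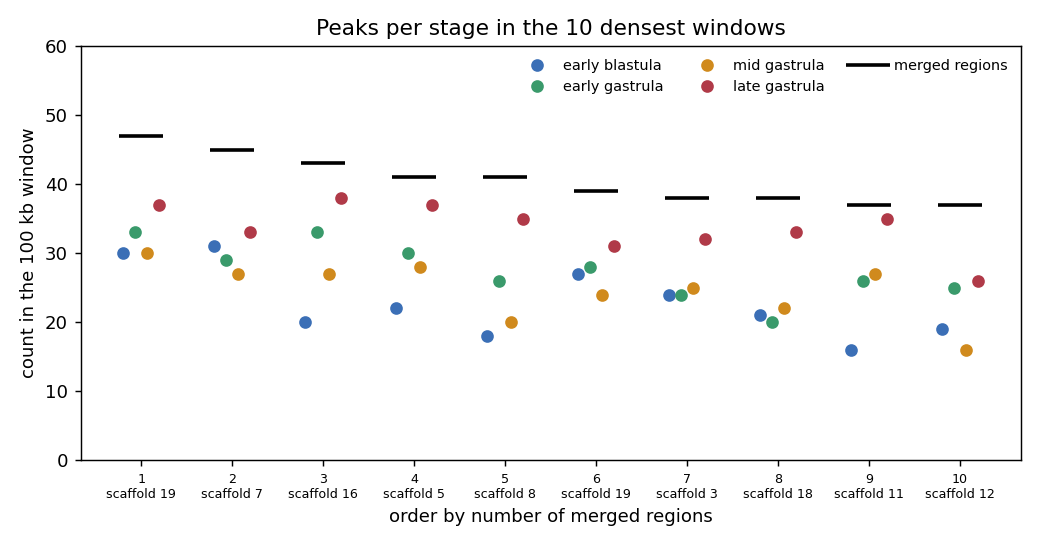
Peaks of each stage (coloured points) and merged regions (black bars) in the 10 densest 100 kb windows, named by scaffold. Late gastrula is the highest point in each, and early blastula ranges from 16 to 31 peaks.

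The highest-ranked peaks of these windows were mostly in regions open throughout. Rank follows the deposited score of a peak in its list, then its −log10 p, and is given as a percentile with 100 at the top. The maximum score of 1000 was held by 37.0% to 45.6% of peaks, depending on stage and kind of window. Among those peaks, which include the leading ones named here, −log10 p set the order. High rank goes with many stages outside dense windows too. When all regions were divided into 5 classes by their best percentile, most in the highest class were open at all 4 stages. The share was 81.7% in dense and 78.3% in other windows. On scaffold 5, a region at 44820842 to 44821584 carried the leading peak of its window at every stage. Its peaks ranked at the 98.7, 97.0, 98.2 and 99.3 percentile from early blastula to late gastrula, with an enrichment of 8.16, 8.12, 10.4 and 10.4. This region was also the widest of its window, at 743 bp.

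On scaffold 16, the widest region, at 15362274 to 15363620, was 1347 bp long and carried the leading peak at the first 3 stages. Its peak measured 1347 bp at early blastula, then 1122 and 1048 bp at the next stages. At late gastrula the lead in that window passed to a peak at 15398642 to 15399281, at the 95.9 percentile, in a region without an early blastula peak. A like change took place on scaffold 8, where a 4-stage region led at the first 3 stages and a peak at 28582627 to 28583023, in a region of mid and late gastrula alone, led at late gastrula at the 90.7 percentile. In the densest window, on scaffold 19, the leading peak was at 6453206 to 6453708 at early blastula and at 6418371 to 6419052 at late gastrula. The same region led at the other gastrula stages, and its peaks ranked between the 87.8 and 89.9 percentile. In the scaffold 7 window no peak passed the 88.6 percentile, reached at early blastula at 12805998 to 12806294, so the second densest window held no peak of the highest ranks.

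Dense windows held a smaller part of the early blastula list than of the gastrula lists. They contained 3900 early blastula peaks, 8.43% of that list (Wilson 95% interval 8.18 to 8.68), and 4437 early gastrula peaks, 9.16% (8.91 to 9.42). They contained 4135 mid gastrula peaks, 9.55% (9.27 to 9.83), and 5933 late gastrula peaks, 9.17% (8.95 to 9.39). The early blastula interval lies below each of the other 3, which overlap each other. These intervals, like all others here, cover counting error of peaks or regions only, and neighbouring regions are not independent. The depth of the libraries is unknown, and the lists differ in length, so counts between stages carry that difference. A share divides by the list length but does not remove its effect, since the same peaks chose the windows. A longer list adds more regions to that choice. With the lists cut to equal lengths the shares were 3.58%, 4.04%, 4.06% and 4.10%, from early blastula to late gastrula. Those lists also chose their own windows, and any effect of depth on weak peaks remains.

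Per dense window, early blastula peaks numbered 6 at the lowest, 15 at the median and 31 at the highest. Early gastrula peaks numbered 9, 17 and 33, mid gastrula peaks 7, 16 and 30, and late gastrula peaks 11, 23 and 38. The ranges overlap widely, with late gastrula highest. Late gastrula peaks outnumbered early blastula peaks in 233 of the 250 windows (93.2%), equalled them in 7 and were fewer in 10. Among 3363 windows of 10 to 24 regions the share with more late gastrula peaks was 77.4%. A window with fewer peaks gives ties and reversals more easily, so these shares are not on the same footing. Mid gastrula peaks were fewer than early gastrula peaks in 154 dense windows and more numerous in 73.

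Counted over all windows together, there were 1.52 late gastrula peaks per early blastula peak in dense windows and 1.39 in the others. The first ratio was 1.10 times the second (counting interval 1.05 to 1.14). The corresponding ratio of ratios was also 1.10 from early blastula to early gastrula (1.05 to 1.15). It was 1.05 from early to mid gastrula (1.0005 to 1.09) and 0.956 from mid to late gastrula (0.917 to 0.997). The ratio was thus larger in dense windows up to mid gastrula and slightly smaller at the last step. From early gastrula onward the intervals ended close to equality, at 1.0005 and 0.997. They treat the counts as independent, although many regions are shared between lists. The peaks counted here also chose the windows, so the timing of the difference was not tested.

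Few windows were crowded at a single stage. Only 4 windows had 25 or more early blastula peaks, while 15, 10 and 100 windows reached that number at the early, the mid and the late gastrula. The lists held 46275, 48416, 43317 and 64713 peaks in the same order. A fixed number of peaks is reached more easily with the longest list, so these counts do not compare the stages. In 151 of the 250 dense windows no stage reached 25 peaks on its own, and the count came from regions that were open at different stages. Without the late gastrula list 85 windows would have held 25 or more regions, all of them among the 250. Without the early blastula list 167 would have, 166 of them among the 250.

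A stage left out of the choice of windows was crowded in them as well, but this is no independent check. Most of its peaks lay in regions that the other lists also held. Over all windows, 8458 merged regions were of early blastula alone, beside 46275 peaks in that list. For mid gastrula these numbers were 1805 and 43317. When windows were chosen on the other 3 lists, at the number of regions that gave nearest to 250 windows, the 277 windows chosen without early blastula held a median of 14 early blastula peaks (6 to 31), against 4 in the other windows. The 253 windows chosen without late gastrula held a median of 22 late gastrula peaks (11 to 38), against 5. For early gastrula the medians were 17 and 4, and for mid gastrula 16 and 3. The ranges overlapped, since other windows reached 22, 22, 20 and 30 peaks from early blastula to late gastrula. Chosen in this way, the windows contained 8.92% of the early blastula list (8.66 to 9.18) and 8.93% of the late gastrula list (8.72 to 9.16). The windows here differ in number between stages, so these shares do not compare the stages.

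Regions of dense windows were more often open throughout and less often restricted to early blastula. Of the 7171 regions, 2371 had a peak at all 4 stages, which is 33.1% (32.0 to 34.2), against 28.7% (28.40 to 29.04) in the other windows and 29.1% of all regions. Regions of early blastula alone numbered 546, 7.61% (7.02 to 8.25) against 10.5% (10.2 to 10.7), and 10.2% of all regions. Regions absent at early blastula and open at all 3 gastrula stages numbered 748, 10.4% (9.74 to 11.2) against 7.41% (7.23 to 7.60), and 7.67% of all regions. Of the 15 possible stage patterns, that of the 3 gastrula stages and that of all 4 gained most in share, by 3.02 and 4.34 percentage points.

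Late gastrula alone, the commonest pattern of a single stage, took shares inside and outside whose intervals overlapped. It comprised 1321 regions, 18.4% (17.5 to 19.3) against 18.7% (18.41 to 18.96), and 18.7% of all regions. Regions of early gastrula alone numbered 315, 4.39% against 5.13% (5.07% of all regions), and regions of mid gastrula alone 105, 1.46% against 2.25% (2.18% of all). With windows of 10 to 24 regions as the comparison, early gastrula alone took 4.39% (3.94 to 4.89) against 4.51% (4.33 to 4.69). Mid gastrula alone then took 1.46% (1.21 to 1.77) against 1.88% (1.76 to 2.00). Late gastrula alone took 18.4% against 17.8% (17.43 to 18.10), the other way round. In each of these pairs the intervals overlap. In all, 2287 regions belonged to a single stage, 31.9% (30.82 to 32.98) against 36.5% (36.2 to 36.9), and 36.1% of all regions. Regions of mid and late gastrula alone numbered 569, 7.93% (7.33 to 8.58) against 7.17% (6.99 to 7.36). Patterns with a gap, absent between stages that held the region, made up 11.2% (10.52 to 11.98) against 13.5% (13.3 to 13.8).

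**Figure D3:**
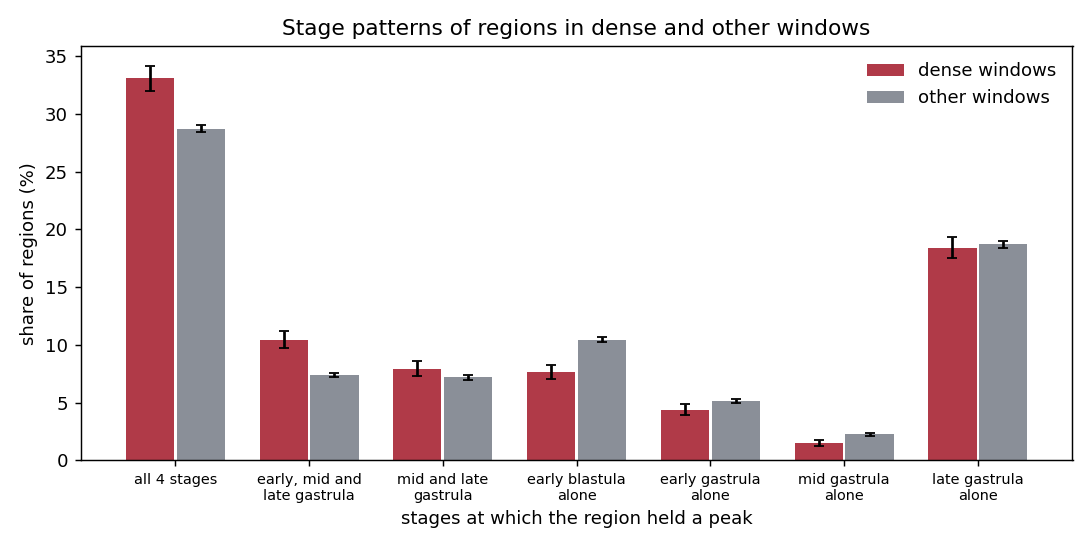
Share of regions (%) with each of 7 stage patterns in dense windows (red) and other windows (grey); error bars are Wilson 95% intervals for counting error. Regions of all 4 stages and of the 3 gastrula stages take a larger share in dense windows, and regions of early blastula alone a smaller one.

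With the lists cut to equal lengths, which left 90 windows of 25 or more regions, the difference in early blastula alone was -4.49 percentage points in place of -2.85. It kept its sign in all other alternatives tried.

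The same differences appeared on nearly every scaffold. On the 23 scaffolds with at least 100 regions in dense windows, the share open at all 4 stages was higher in dense than in other windows on 22, and the share of early blastula alone was lower on 22. The share open at the 3 gastrula stages was higher on 21. The share of late gastrula alone was higher on 14 and lower on 9. The scaffolds share the 4 lists and are not independent observations.

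These differences did not start at the threshold. The share open at all 4 stages was 20.2% in windows of 1 to 4 regions, 30.5% at 10 to 14, 32.2% at 25 to 29 and 35.4% (32.4 to 38.5) at 35 to 47. It changed most among sparse windows. The share open at the 3 gastrula stages was 7.30% at 1 to 4 regions, 6.36% at 5 to 9, 6.76% at 10 to 14 and 9.30% at 20 to 24, and went on to 9.75%, 11.2% and 12.4% (10.4 to 14.6) in the 3 dense classes. The share of early blastula alone was 9.95% at 1 to 4 regions, highest at 5 to 9 with 11.7%, and then 7.81% at 20 to 24, 8.08% at 25 to 29 and 6.50% (5.09 to 8.26) at 35 to 47. Against windows of 10 to 24 regions only, the difference in 4-stage regions was 2.10 percentage points, compared with 4.34 against all other windows, while that in early blastula alone was -2.47 points.

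**Figure D4:**
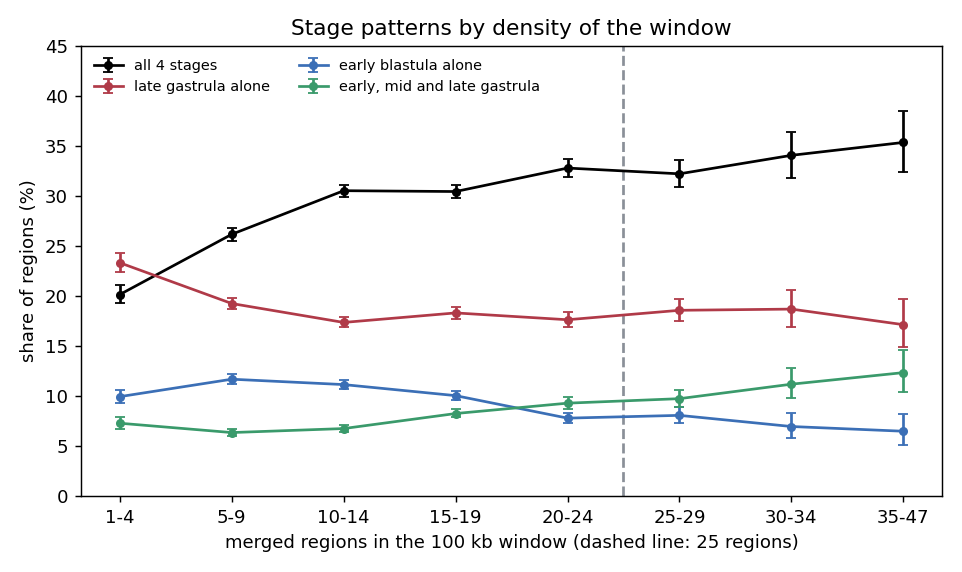
Share of regions (%) with 4 stage patterns by the number of regions in their window; bars are Wilson 95% intervals and the dashed line marks 25 regions. The share of all 4 stages climbs from 20.2% to 35.4%, and the 3 gastrula stages overtake early blastula alone among windows of 20 or more regions.

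Peaks of dense windows ranked somewhat higher in their lists, and rank is tied to how many stages share a region. From early blastula to late gastrula the median percentiles were 53.6, 56.2, 55.0 and 53.2 in dense windows. In other windows they were 49.7, 49.4, 49.5 and 49.7. All regions were therefore also divided into 5 equal classes by the best percentile among their peaks. In the 2 highest classes the 4-stage share remained larger in dense windows, at 81.7% (79.6 to 83.6) against 78.3% (77.7 to 79.0) in the highest and 51.4% (49.1 to 53.7) against 47.2% (46.4 to 48.1) in the next. In the 3 lower classes these intervals overlapped or the share was near 0. Early blastula alone took a smaller share in dense windows in classes 2, 3 and 4, counted from the lowest: 13.4% against 16.2%, 5.88% against 8.71% and 1.84% against 3.44%. The 3 gastrula stages took a larger share in the same classes, with 6.39% against 3.80%, 12.9% against 10.4% and 18.8% against 13.5%. For these last 2 patterns the intervals did not overlap in any of the 3 classes. Late gastrula alone took a larger share in dense windows in the 3 lower classes: 45.5% against 42.1%, 33.1% against 30.3% and 18.1% against 15.4%. Of these classes, its intervals did not overlap in class 3 (16.14 to 20.15 against 14.87 to 16.02). In the highest class it took a smaller share in dense windows, 0.140% (0.038 to 0.509) against 0.648% (0.532 to 0.788), also without overlap.

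Regions open throughout did not rank higher in dense windows. The 2371 regions of all 4 stages had median percentiles of 67.0, 71.4, 67.7 and 73.7 from early blastula to late gastrula. In other windows the medians were 69.4, 71.4, 67.2 and 76.7. They were lower in dense windows at the first and the last stage and within 1 point at the others. Between early blastula and late gastrula 61.4% of these regions moved up in rank in dense windows and 64.0% in other windows.

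Once open, regions of dense windows were kept more often at the next stage. Of regions with an early blastula peak, 78.1% (76.7 to 79.4) had an early gastrula peak in dense windows and 71.4% (71.0 to 71.8) in other windows. From early to mid gastrula 74.7% (73.4 to 76.0) were kept against 68.2% (67.7 to 68.6), and from mid to late gastrula 94.0% (93.2 to 94.7) against 90.2% (89.9 to 90.5). A region counts as lost here where the later list has no peak in it, which includes peaks below the threshold of that list. From end to end, 2914 of the early blastula regions were kept and 909 lost, 76.2% (74.8 to 77.5) kept against 69.4% (69.0 to 69.9).

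New regions made up a smaller part of the mid and late gastrula lists in dense windows than in other windows. At early gastrula 31.2% (29.8 to 32.6) of regions were new since early blastula, against 30.4% (29.98 to 30.85). At mid gastrula 19.8% (18.6 to 21.1) were new since early gastrula, against 23.4% (23.03 to 23.88), and at late gastrula 34.5% (33.3 to 35.7) were new since mid gastrula, against 39.8% (39.4 to 40.2). The first pair of intervals overlaps and the others do not. With fewer losses, gains per loss were higher in dense windows at every step: 1.61 against 1.09, 0.731 against 0.656, and 8.19 against 6.06.

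Individual dense windows varied widely around these averages. The share of regions open at all 4 stages ran from 6.45% through a median of 32.0% to 65.6%. It was highest on scaffold 8 at 7300001 to 7400000, where 21 of 32 regions were open throughout, with 22, 25, 27 and 35 peaks from early blastula to late gastrula and none open at early blastula alone. On scaffold 17 at 16500001 to 16600000 it was 16 of 25 regions, and on scaffold 5 at 28200001 to 28300000 it was 20 of 35. These 3 windows were chosen for this share, so it describes them and tests nothing.

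Some dense windows were marked by a single stage. The first 3 below were chosen for their share of late gastrula alone, not for a low share open at all 4 stages. That share was lowest on scaffold 4 at 30500001 to 30600000, with 2 of 31 regions. Late gastrula alone accounted for 14 of 28 regions on scaffold 6 at 25100001 to 25200000, where the peaks numbered 11, 12, 13 and 25. It accounted for 14 of 31 on scaffold 13 at 33700001 to 33800000, with 11, 15, 15 and 30 peaks, and for 11 of 26 on scaffold 7 at 34400001 to 34500000, with 10, 13, 14 and 27. In all 3 the counts of the first 3 stages lay within 4 peaks of each other, and no region was open at early blastula alone. Late gastrula peaks exceeded early blastula peaks most, by 4 to 1, on scaffold 20 at 19700001 to 19800000, with 6, 13, 12 and 24 peaks. The next highest ratio, 3.44, was on scaffold 8 at 28400001 to 28500000, with 9, 16, 17 and 31 peaks. That window adjoins the one of rank 5, and together they held 76 regions with 27 peaks at early blastula and 66 at late gastrula.

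Few dense windows were richest at early blastula. The clearest was the small-scaffold window, on scaffold 85, with 19, 13, 11 and 11 peaks and 9 of 25 regions open at early blastula alone. Its late gastrula peaks were 0.579 of its early blastula peaks, the lowest value of all dense windows. The next lowest, 0.762, was on scaffold 22 at 9200001 to 9300000, with 21, 14, 13 and 16 peaks. Early blastula alone also accounted for 8 of 26 regions on scaffold 14 at 20800001 to 20900000 and for 7 of 25 on scaffold 7 at 38700001 to 38800000. The late gastrula list equalled or passed the early blastula list even there, with 16 against 16 and 20 against 18 peaks.

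Within the windows the spacing between regions was uneven. The median gap between neighbouring regions of the same window was 1592 bp, against 3881 bp in other windows, as the choice of windows requires. In 25.9% of neighbouring pairs the gap was under 500 bp, against 19.6%. Divided into 10 bins of 10 kb, a dense window had a median of 9 bins with a region, and in 96 windows all 10 bins had one. The fullest bin held a median of 6 regions and at most 10, the latter in the scaffold 7 window of 45 regions. In 24 windows an empty stretch of over 20 kb, at most 31409 bp, lay between regions.

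Neighbours in dense windows shared a pattern somewhat more often than the pattern's share among all regions there. A region open at all 4 stages was followed by another in 35.9% of cases (33.9 to 37.9), where 33.1% of regions had that pattern. A region of late gastrula alone was followed by another in 21.9% (19.7 to 24.2), where 18.4% had it, and one of early blastula alone in 10.9% (8.52 to 13.9), where 7.61% had it. For the 3 gastrula stages the share was 12.4% (10.20 to 14.99), where 10.4% had it, and the interval includes that value. In other windows the corresponding shares were 33.8%, 22.3%, 14.3% and 10.4%, beside shares among all their regions of 28.7%, 18.7%, 10.5% and 7.41%. Windows differ in composition, which also makes neighbours alike, and its part was not tested.

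Regions in dense windows were slightly wider, with a median of 314 bp (309 to 317) against 299 bp (298 to 301), and were wider on 22 of the 23 scaffolds compared. Among regions of the same number of stages the difference was present for 3 stages, smaller for 4 and 2 stages, and the other way for 1 stage. Regions of all 4 stages had medians of 417 bp (407 to 428) and 414 bp (411 to 417), those of 3 stages 347 bp (336 to 357) and 332 bp (330 to 335), those of 2 stages 296 bp (289 to 304) and 294 bp (292 to 296), and regions of 1 stage 237 bp (233 to 241) and 241 bp (240 to 242). Only the regions of 3 stages had intervals that did not overlap. With windows of 10 to 24 regions as the comparison, the difference in the median was 8 bp in place of 15 bp, and with every peak set to 200 bp around its summit it was 2 bp. Where peaks lie close together merging can also join them, and this was not corrected.

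Single peaks were wider in dense windows at every stage. From early blastula to late gastrula the median widths were 303, 313, 315 and 287 bp in dense windows, against 292, 289, 297 and 271 bp in other windows. Broad peaks over 1000 bp made up 0.371% (0.245 to 0.561) of late gastrula peaks in dense windows and 0.192% (0.160 to 0.231) in others. The mid gastrula shares were 0.532% (0.352 to 0.804) and 0.245% (0.201 to 0.299), and those of early gastrula 0.631% (0.437 to 0.911) and 0.387% (0.333 to 0.449). At early blastula the order was the other way, 0.615% (0.414 to 0.914) against 0.871% (0.787 to 0.964), with overlapping intervals. These shares rest on 22 to 28 broad peaks per stage in dense windows, and the early gastrula intervals overlap too. Merged regions showed little such difference, with 1.10% over 1000 bp in dense windows and 1.06% in others. Among regions of all 4 stages the share was lower in dense windows, 2.91% against 3.34%.

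The deposited enrichment, a fold over background, was lower in dense windows at every stage, while the deposited −log10 p was nearly the same. Median enrichment was 5.54 in dense against 7.11 in other windows at early blastula. At the successive gastrula stages it was 6.14 against 8.33, 6.31 against 8.69 and 5.70 against 7.92. The median −log10 p was 25.8 against 26.1, 28.97 against 28.36, 29.7 against 29.4 and 27.2 against 28.1. Both are the authors' values per peak, and they describe peaks within a list.

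Enrichment followed density over the whole range. At late gastrula its median was 9.59 in windows of 1 to 4 regions, 7.98 at 10 to 14, 5.99 at 25 to 29 and 4.98 at 35 to 47. At early blastula the same classes gave 8.67, 7.09, 5.73 and 4.81. The medians of the 4 lists ran from 8.67 to 10.5 in the sparsest windows and from 4.81 to 5.40 in the densest. These ranges show the fall within each list and do not compare the stages.

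The number of close neighbours moved with enrichment inside and outside the dense windows. Late gastrula peaks of dense windows had a median enrichment of 8.99 where no other region lay within 5 kb of the region's midpoint, 6.53 with 2 such neighbours and 4.14 with 5 or more. In other windows these medians were 9.63, 7.43 and 4.72. Enrichment was lower in dense windows at each of the 4 stages in each of the 6 neighbour classes. The class of 5 or more does not fix the number of neighbours. MACS2, named in the submitters' processing notes, can take its background from the sequence around a peak, so that neighbouring peaks enter it. How it was set is not stated in any label or header, and the part of this in the lower enrichment was not tested.

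**Figure D5:**
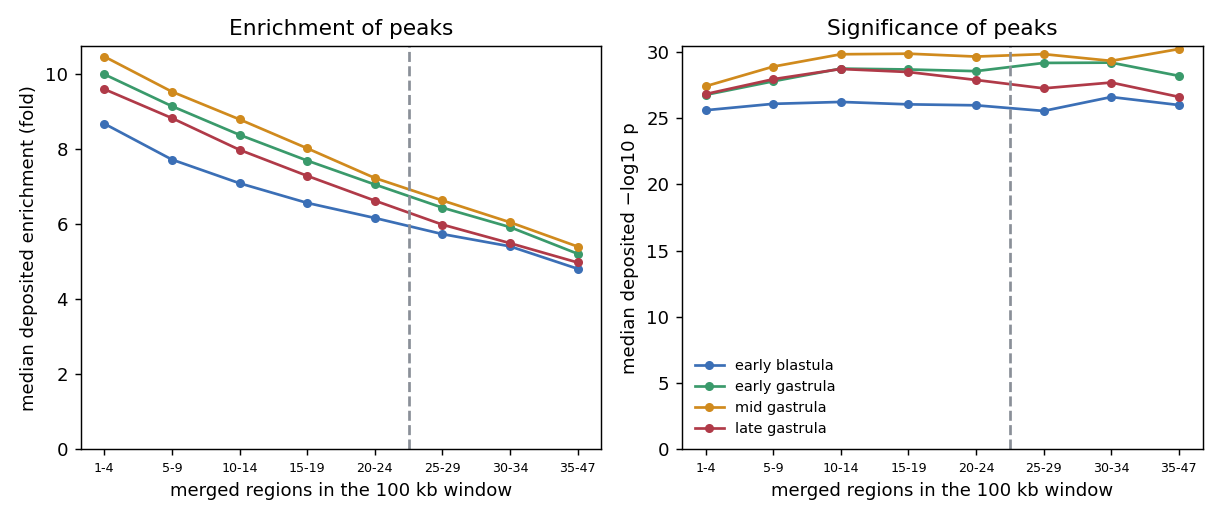
Median deposited enrichment (left, fold) and median deposited −log10 p (right) of peaks by the number of merged regions in their 100 kb window, 1 line per stage, with the dashed line at 25 regions. Enrichment falls at late gastrula from 9.59 to 4.98 while −log10 p keeps between 26.6 and 28.7.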

How the data were processed

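Per the labels, each library came from 75000 cells of whole animals, whose jelly coat was removed before lysis and Tn5 treatment. Bowtie2, MACS2 and bedtools were used, per the submitters' processing notes. For build, versions, settings, Tn5 shift and pooling of replicates nothing is stated. The authors deposited 1 list per stage in the layout of the IDR tool (irreproducible discovery rate, agreement of replicates). In the deposited lists the score is a transform of the IDR with a maximum of 1000, and a further score column holds the IDR itself on a log scale. The authors' peak caller gave the enrichment, a fold over background, and the −log10 p, as deposited. The highest IDR was 0.100. Values were used within a list only.

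Starts were converted to 1-based positions. Windows were numbered from 0, their length limited by the larger of the named scaffold length and the last peak end. Widths count both end positions. Shares have Wilson 95% intervals, ratios counting intervals on the log scale, and medians order-statistic intervals. The members were chosen with earlier results of these data known. Windows and peaks are named by rule: the 10 densest, runs of 3, extremes of stage shares and ratios, and leading peaks and widest regions of the 5 densest; the scaffolds, and results on neighbours, enrichment and rank, were chosen after values were seen. Merging was checked against bedtools 2.31.1, and window counts were tested on simulated data. Sequences were not analysed here. Tools were SciPy 1.17.1, NumPy 2.4.6 and pandas 2.3.3 under Python 3.11.15, with figures from Matplotlib 3.10.9. Alternatives were other grids, sizes, thresholds, lists, merging rules, stages and comparison windows.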

Additional observations from a re-analysis of the deposited data

How the results depend on the processing

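No paired analysis was possible because the lists, 1 for each stage, hold no values per replicate, and no replicate could be left out for the same reason. Of 213 values under alternatives, none changed direction, 102 stayed within the counting interval (counts of windows or regions: within 1.5 times) and the rest moved further; counts and shares of peaks cannot change direction. The comparison with windows of 10 to 24 regions, thresholds rematched to about 250 windows, and the results on early blastula alone, the 3 gastrula stages and enrichment were added after seeing the data. Depth is unknown, and weak peaks missed for want of reads cannot be told from closed chromatin. The causes of the moves were not tested, apart from those fixed by a larger or smaller window, a higher or lower threshold, or fewer peaks.

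The number of dense windows followed the definition. It was 887 (13578 regions) for 50 kb windows of 13 or more regions, 47 (2627) for 200 kb windows of 50 or more, 718 (17331) at 20 or more regions and 78 (2618) at 30 or more. It was 3 (81 regions) for peaks with an IDR of at most 0.01, 90 (2539) at equal list lengths, 160 (4585) with regions merged within 100 bp and 85 (2376) without late gastrula. With the threshold rematched on the lists of IDR at most 0.01, 230 windows held 3917 regions, and 151 of these windows were among the 250.

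The share of each stage's peaks in dense windows moved with it, and early blastula was lowest wherever it entered. From early blastula to late gastrula the percentages were 15.96, 17.3, 18.6 and 17.7 for 50 kb windows, 3.01, 3.40, 3.51 and 3.36 for 200 kb windows, 20.7, 22.0, 23.03 and 22.1 at 20 or more regions, and 3.01, 3.42, 3.56 and 3.38 at 30 or more. They were 0.162, 0.227, 0.273 and 0.211 at an IDR of at most 0.01, 3.58, 4.04, 4.06 and 4.10 at equal lengths, 11.4, 12.4, 12.8 and 12.3 for 200 bp around summits, and 5.62, 6.25, 6.54 and 6.23 for merging within 100 bp. Rematched thresholds gave 9.15, 10.2, 10.6 and 9.77 for the IDR of at most 0.01, and 9.62, 10.6, 10.8 and 10.8 for equal lengths. A shift of 50 kb gave 9.44, 9.93 and 9.49 at the gastrula stages. The remaining stages held, in order, 6.50, 6.91 and 6.61 without early blastula, 7.06, 8.14 and 7.82 without early gastrula, 7.90, 8.64 and 8.63 without mid gastrula, and 3.42, 3.73 and 3.88 without late gastrula.

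The difference in regions open at all stages was 5.61 percentage points at 30 or more regions, 5.82 at an IDR of at most 0.01, 5.66 at equal lengths, 7.21 without early blastula, 6.12 without late gastrula and 2.10 against windows of 10 to 24 regions. That in regions of 1 stage was -6.60 for 50 kb windows, -5.92 at 20 or more regions, -11.2 at an IDR of at most 0.01, -6.29 at equal lengths and -2.33 against windows of 10 to 24. For early blastula alone it was -3.72 for 50 kb windows, -3.53 at 30 or more regions, -4.06 at an IDR of at most 0.01, -4.49 at equal lengths (-3.72 with the threshold rematched), -4.29 without early gastrula and -4.05 without late gastrula. For the 3 gastrula stages it was 4.03 for 200 kb windows, 4.07 at 30 or more regions, 14.4 at an IDR of at most 0.01 (4.01 rematched) and 4.19 without early gastrula, where 2 gastrula stages remain. Leaving out a stage redefines the other patterns too. All stages then means the remaining 3, and early blastula alone includes regions shared only with the omitted stage. Those values are not the same quantity as in the main result.

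Late gastrula peaks per early blastula peak, in dense over other windows, came to 1.30 at an IDR of at most 0.01 and 1.15 at equal lengths. The difference in median width was 47 bp at an IDR of at most 0.01, 19 bp at equal lengths, 2 bp for 200 bp around summits and 8 bp against windows of 10 to 24 regions. Median enrichment in dense over other windows, averaged over stages, was 0.740 and moved to 0.781 at 20 or more regions, 0.693 at 30 or more, 0.566 at an IDR of at most 0.01 (0.712 rematched), 0.685 at equal lengths, 0.752 for summits, 0.721 for merging within 100 bp, 0.710 without early blastula, 0.6996 without late gastrula and 0.786 against windows of 10 to 24 regions. With only 3 windows, the values at an IDR of at most 0.01 say little.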
